A study of Homo sapiens with 21 samples.

Results

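The kallikrein genes KLKP1, KLK2, KLK3 and KLK4 and the steroid-responsive gene FKBP5 were read in 21 RNA-seq libraries of MDA-MB-453 cells. These 5 genes were taken by symbol from a table of 58735 genes. KLKP1 was chosen by its measured level, which was higher in cells given diethylstilbestrol (DES) with cadmium than in cells given DES alone, and KLK2, KLK3 and KLK4 as its neighbours on chromosome 19. All values in that contrast are therefore a description, with no test. FKBP5 was taken as a gene well known to respond to androgens and glucocorticoids.

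MDA-MB-453 is an established breast cancer line, labelled wild type in all libraries, and each of 7 groups held 3 libraries. The groups were a control labelled as untreated, calcium at 10 mM, cadmium at 10 μM, GSK4716 at 5 μM, DES at 10 μM, and DES combined with either metal, at these doses and for 24 h. In the combined groups DES was added 3 h before the metal. The study used GSK4716 as an agonist and DES as an antagonist of the orphan receptor ESRRB, and asked whether the metals act through that receptor. Calcium and GSK4716 were given without serum, cadmium was given in 1% CSS, GSK4716 and DES were dissolved in ethanol, and the final medium and vehicle of the control were not stated, so treatment, medium and vehicle cannot be told apart. The labels do not say whether replicates were separate cultures, so each p-value measures the spread between libraries, which may be technical.

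The kallikreins are secreted serine proteases whose genes lie side by side in a single cluster on the long arm of chromosome 19. KLK2 and KLK3, which encodes prostate-specific antigen, are classical androgen-induced genes of prostate cells, and KLKP1 is a pseudogene that lies between KLK2 and KLK4. FKBP5 encodes FKBP51, a co-chaperone of HSP90 that binds steroid receptor complexes and is itself induced by androgens and glucocorticoids. MDA-MB-453 is known as a line of luminal type.

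Each library held between 14435925 and 28424805 fragments on genes, with a median of 18314738. The epithelial markers KRT8, KRT18 and EPCAM and the receptor gene ERBB2 were present in all libraries, and the lowest level among them was 50.9 FPKM for EPCAM (fragments scaled to gene length and library size). Of 9 markers of other cells, 8 stayed below 1 FPKM in all libraries, among them PTPRC, CD3E, PECAM1 and KRT14. The exception, the collagen gene COL1A1, ranged from 9.34 to 32.7 FPKM. The summed level of the 9 was between 10.6 and 12.1 FPKM in the control, 9.99 and 15.3 with cadmium, and 9.80 and 12.2 with GSK4716. With calcium it was between 14.2 and 17.5 FPKM, above all control libraries. It was between 12.5 and 33.6 FPKM with DES, also above the control, 9.63 and 16.8 when calcium was added to DES, and 10.3 and 28.9 when cadmium was added. Its part in the results was not tested. In bulk RNA of this kind, fewer cells that express a gene and less RNA of that gene per cell cannot be told apart.

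KLKP1 (ENSG00000197588) is annotated as a transcribed unprocessed pseudogene on the minus strand of chromosome 19, from 50882096 to 50896398 in GRCh38, and its summed exon length was 1912 bases. KLK2 ends 1529 bases away on the plus strand and KLK4 lies 9954 bases away on the minus strand. No other gene of the table overlapped KLKP1. Reads of related genes can be shared, so its transcripts were compared with those of all other genes. Of 1863 distinct stretches of 50 bases in the 3 annotated KLKP1 transcripts, 0 occurred in an annotated transcript of any other gene, KLK2, KLK3 and KLK4 included.

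The windows around the starts of KLKP1, its neighbours and the genes whose pattern was most like it are shown because KLKP1 was detected where its coding neighbours were not. Levels were measured per gene and are not tied to these starts, and the KLKP1 and KLK2 starts shown lie inside the gene spans of the table. Each window runs from 250 bases before to 50 bases after an annotated start, 5′ to 3′ on the strand of the gene. Capitals mark matches, on either strand, to the core of the metal response element (TGCACNC or TGCGCNC), to an androgen response element (AGAACA, 3 bases of any kind and TGTTCT) or to the androgen element of the KLK3 promoter, the longest run of capitals in KLK2 and KLK3, with any base at its first place. The response element of the estrogen-related receptors (TNAAGGTCA) was also searched and is not marked. AGAACA, a single arm of the androgen response element, was searched too and overlaps the start of the KLK3 element in KLK3. The KLKP1 window surrounds an inner annotated start (chr19:50888612-50888911), from GENCODE, on the minus strand of GRCh38. The other windows are from RefSeq on GRCh38.p14: KLK2 (chr19:50873189-50873488, plus strand), KLK3 (chr19:50854665-50854964, plus strand), SLC30A1 (chr1:211579112-211579411, minus strand) and MT2A (chr16:56608334-56608633, plus strand).
KLKP1 inner start: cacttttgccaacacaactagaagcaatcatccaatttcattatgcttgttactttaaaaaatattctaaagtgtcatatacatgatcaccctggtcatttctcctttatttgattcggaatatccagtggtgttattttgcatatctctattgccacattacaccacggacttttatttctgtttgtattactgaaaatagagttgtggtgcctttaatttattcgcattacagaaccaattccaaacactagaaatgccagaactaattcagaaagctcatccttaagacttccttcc
KLK2: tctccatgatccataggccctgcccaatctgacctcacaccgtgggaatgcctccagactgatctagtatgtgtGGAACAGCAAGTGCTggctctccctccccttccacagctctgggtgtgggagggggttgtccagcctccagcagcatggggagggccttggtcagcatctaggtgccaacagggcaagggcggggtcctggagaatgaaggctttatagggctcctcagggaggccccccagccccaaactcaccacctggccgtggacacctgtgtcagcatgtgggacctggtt
KLK3: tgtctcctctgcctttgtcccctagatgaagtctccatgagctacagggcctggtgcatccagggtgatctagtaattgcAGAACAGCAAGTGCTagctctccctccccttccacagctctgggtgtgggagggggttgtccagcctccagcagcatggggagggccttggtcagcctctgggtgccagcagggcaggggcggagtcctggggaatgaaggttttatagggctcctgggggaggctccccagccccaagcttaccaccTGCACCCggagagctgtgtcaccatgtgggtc
SLC30A1: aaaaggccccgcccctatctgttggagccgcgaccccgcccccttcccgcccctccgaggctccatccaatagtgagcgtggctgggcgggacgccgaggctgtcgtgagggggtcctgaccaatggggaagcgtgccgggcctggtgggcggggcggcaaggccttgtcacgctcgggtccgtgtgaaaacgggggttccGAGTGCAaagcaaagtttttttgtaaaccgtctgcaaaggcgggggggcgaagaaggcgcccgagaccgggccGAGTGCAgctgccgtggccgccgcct
MT2A: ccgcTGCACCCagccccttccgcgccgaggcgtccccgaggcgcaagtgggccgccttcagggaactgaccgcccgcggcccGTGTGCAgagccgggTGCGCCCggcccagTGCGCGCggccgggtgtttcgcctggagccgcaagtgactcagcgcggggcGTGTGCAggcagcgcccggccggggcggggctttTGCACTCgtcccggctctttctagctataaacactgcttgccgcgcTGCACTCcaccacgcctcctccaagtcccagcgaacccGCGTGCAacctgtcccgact

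KLK2 and KLK3 had 1 match each to the KLK3 element. Its letters are those of the KLK3 promoter with the base at which KLK2 differs left free, so both matches were fixed by the search. Of 35116 promoters of the same length, 2 held it (0.00570%), and no rarity is read from that share. Over the aligned windows KLK2 and KLK3 shared 245 of 309 columns (79.3%). The MT2A window held 8 metal element cores, MT1B held 3, SLC30A1 held 2 and KLK3 held 1. At least 1 core was present in 29.6% of all promoters, at least 2 in 8.60% and at least 3 in 2.30%. The KLKP1 window held none of the searched letters, which says only that these letters are not in this window. In FKBP5, 1 of 2 windows held a single AGAACA, which 14.8% of all promoters had. ZBTB2 held 1 TNAAGGTCA match, present in 0.951% of promoters, and no window of these genes held the full androgen response element, which was found in 1 of 35116 promoters. Windows were found in RefSeq for 8 of 9 genes looked up, all but MT1F.

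KLKP1 was detected mainly where cadmium was present. Its counts were 0 fragments in all 3 control libraries and 0 in all 3 calcium libraries. With cadmium it had 18, 72 and 444 fragments, and with DES and cadmium it had 700, 424 and 771. These 6 libraries held 96.9% of the 2508 KLKP1 fragments of the series.

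The remaining groups held few fragments. With GSK4716, KLKP1 had 0, 0 and 6 fragments. With DES it had 6, 2 and 15, and with DES and calcium 24, 20 and 6. All 6 of these DES libraries therefore held KLKP1 fragments, and no control or calcium library did.

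Per length and depth, KLKP1 was at 0.518, 1.85 and 14.1 FPKM with cadmium, a mean of 5.50 ± 7.50 (SD, n = 3). The cadmium libraries thus spread widely, and replicate 3 alone held most of the group's signal. With DES and cadmium the level was 22.8, 16.0 and 22.2 FPKM, a mean of 20.3 ± 3.76 (SD, n = 3), and every library lay above the highest cadmium library. The DES mean was 0.223 ± 0.221 FPKM, that of DES and calcium 0.487 ± 0.285, and that of GSK4716 0.0439 ± 0.0760 (SD, n = 3 each). In the order of the group means, DES with cadmium did not overlap cadmium, with 16.0 FPKM as its lowest against 14.1 as the highest of cadmium. The share of all genes without overlap in this pair was not computed. KLKP1 was chosen for its level with DES and cadmium, so nothing is read from the gap. Cadmium, DES with calcium, DES and GSK4716 each overlapped the next group.

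Because the control held no fragment, fold changes against it are lower bounds, set against 3 fragments per library (0.0726 FPKM on average). KLKP1 was at least 75.8-fold higher with cadmium and at least 280-fold higher with DES and cadmium. The cadmium bound was 16.3-fold when replicate 3 was left out. The bound was 6.71-fold with DES and calcium. With DES it was 3.07-fold, and 1.34-fold without DES replicate 3, and DES replicate 2 held fewer than 3 fragments. The ratio of means was 91.2 between DES with cadmium and DES, the contrast that chose the gene, and 209 without DES replicate 3. It was 3.70 between DES with cadmium and cadmium, 17.2 without cadmium replicate 3 and 2.54 without cadmium replicate 1. These values with a library left out were added after the data were seen.

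**Figure D1:**
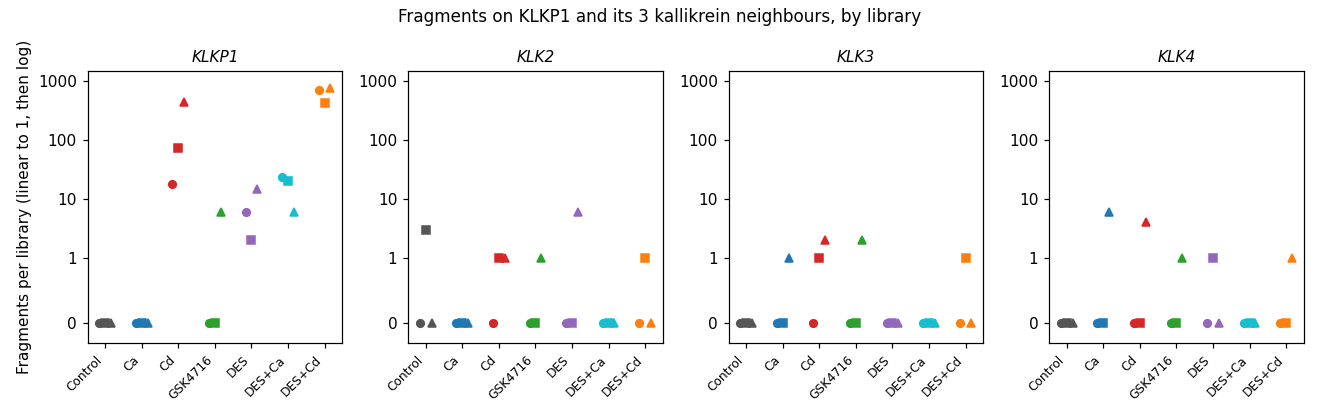
Fragments per library (y axis, linear to 1 and logarithmic above) on KLKP1, KLK2, KLK3 and KLK4 in the 7 groups (x axis). Circles, squares and triangles are replicates 1, 2 and 3; KLKP1 reached 771 fragments with DES and cadmium, and KLK2, KLK3 and KLK4 did not exceed 6 in any library.

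KLKP1 passed the filter used for testing, a mean of at least 0.5 FPKM over the 21 libraries, only through the groups with cadmium. Its values in all contrasts are therefore a description, with no test. All cadmium libraries were above all control libraries, as were those of 17.7% of all tested genes, and 0.129% of all genes were called higher and 0.0204% lower by limma on log2(FPKM + 0.1). All DES libraries were above all control libraries too, which held for 25.9% of all genes. With GSK4716, and between DES with calcium and DES, the KLKP1 groups overlapped.

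The coding neighbours of KLKP1 were almost silent in every group. KLK2, KLK3 and KLK4 held 33 fragments together in the 21 libraries, against 2508 on KLKP1. KLK2 (ENSG00000167751, 50861568 to 50880567, plus strand, 6394 bases) had 13 fragments, of which 6 were in DES replicate 3 and 3 in control replicate 2. KLK3 (ENSG00000142515, 50854915 to 50860764, plus strand, 4639 bases) had 7, with at most 2 in a library. KLK4 (ENSG00000167749, 50906352 to 50910738, minus strand, 1935 bases), a protease of enamel and prostate, had 13, of which 6 were in calcium replicate 3 and 4 in cadmium replicate 3.

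In the 6 libraries in which KLKP1 had 18 fragments or more with cadmium present, KLK2 had 0, 1, 1, 0, 1 and 0 fragments, in the order of cadmium and then DES with cadmium. KLK3 had 0, 1, 2, 0, 1 and 0, and KLK4 had 0, 0, 4, 0, 0 and 1. The highest of these counts in any DES with cadmium library was 1. Expression of the coding neighbours was at or near the limit of 3 fragments that a count of 0 allows, so no fold change is given for them and none of the 3 passed the filter.

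Among the other kallikreins, KLK14 alone passed the filter. Of the 15 coding kallikreins 13 never exceeded 10 fragments in a library. KLK6, a protease known from brain and from epithelial tumours, had 6, 14 and 10 fragments with calcium, 5, 2 and 5 with DES, and 0 in each control library. With DES and calcium it had 0, 5 and 0. In the limma fit with no filter, adjusted p was 0.191 with calcium and 0.0725 with DES. All libraries above the control were seen for 16% of tested genes with calcium and 25.9% with DES.

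KLK14, a trypsin-like protease of skin and breast, was at 1.82, 2.63 and 3.31 FPKM in the control and at 0.483, 1.39 and 1.57 with DES. The groups did not overlap, as for 22.9% of all genes that were lower in each DES library. The difference was -1.21 (SE 0.45, adjusted p = 0.0851 by limma) and did not pass. The KLK14 mean was 3.10 ± 0.853 FPKM in the calcium group, 3.95 ± 1.72 in the cadmium group and 2.69 ± 0.857 in the GSK4716 group (SD, n = 3 each). With DES and cadmium it ranged from 0.0523 to 5.22 FPKM, while KLKP1 was between 16.0 and 22.8 FPKM in the same libraries.

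Few genes of the wider neighbourhood were expressed. Of 46 genes within 250 kb of KLKP1, 6 passed the filter: KLKP1, KLK14, CLEC11A, C19orf48, SNORD88A and CTU1. SNORD88A, a small nucleolar RNA gene within C19orf48, had at most 9 fragments in a library. CTU1, a tRNA thiolation enzyme, was at 11.2, 10.3 and 14.6 FPKM in the control, 9.72, 9.70 and 9.88 with cadmium, and 19.4, 18.7 and 19.1 with DES and cadmium.

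CTU1 rose with DES, to 23.4, 20.2 and 20.6 FPKM, a log2 difference of 0.84 (SE 0.17, adjusted p = 0.0135 by limma). The call was lost without control replicate 1 (adjusted p = 0.0660), without control replicate 2 (0.0562) and with no filter on low values (0.0589). CLEC11A, a secreted growth factor gene, was at 11.8 ± 1.48 FPKM in the control and 7.59 ± 2.26 with cadmium (SD, n = 3), a difference of -0.67 (SE 0.24, adjusted p = 0.155, and 0.0463 without cadmium replicate 1). With DES the CLEC11A mean was 20.0 ± 5.63 FPKM (SD, n = 3), a difference of 0.72 (SE 0.23, adjusted p = 0.0522, and 0.0280 without DES replicate 3).

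C19orf48 was at 30.3, 35.6 and 26.9 FPKM in the control. It was lower with calcium, at 13.0, 14.4 and 7.26, with cadmium, at 17.5, 12.2 and 15.3, and with GSK4716, at 19.3, 17.2 and 18.2. With DES it was at 42.2, 32.4 and 36.9 FPKM. C19orf48 fell by 1.46 with calcium on the log2 scale (SE 0.28, adjusted p = 0.0359 by limma). With cadmium the difference was -1.04 (SE 0.18, adjusted p = 0.0625, and 0.0323 without cadmium replicate 1) and with GSK4716 -0.75 (SE 0.12, adjusted p = 0.139). These contrasts share the same control libraries.

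**Figure D2:**
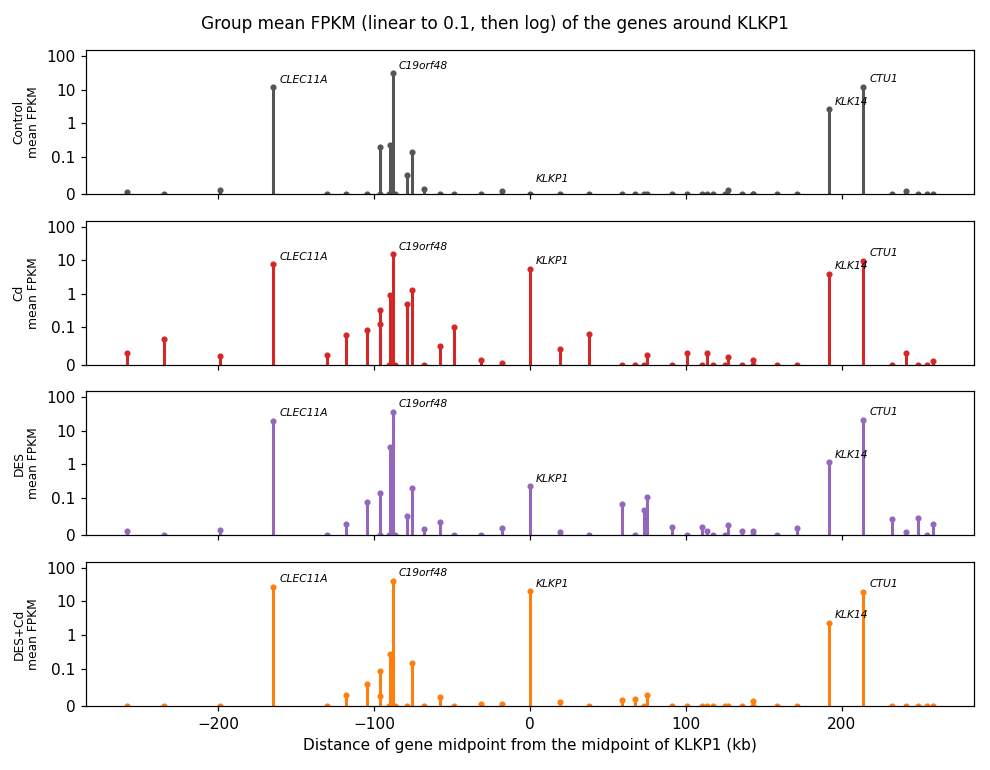
Group mean FPKM (y axis, linear to 0.1 and logarithmic above) of the 46 genes within 250 kb of KLKP1, plotted at the distance of each gene's midpoint from that of KLKP1 (x axis, kb), in control, cadmium, DES and DES with cadmium. Each stem is 1 gene; KLKP1 is at 0 in the control, 5.50 with cadmium and 20.3 with DES and cadmium, while the genes next to it stay close to 0.

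The genes whose pattern was most like that of KLKP1 were SLC30A1, MT1B, ZBTB2, MT2A and MT1F. SLC30A1 encodes a zinc exporter, MT1B, MT2A and MT1F encode metallothioneins that bind zinc and cadmium, and ZBTB2 encodes a zinc finger transcription factor. The likeness is Pearson's r of log2(FPKM + 0.1) over 21 libraries, which share groups and are not independent points. It was 0.949 for SLC30A1, 0.910 for MT1B, 0.906 for ZBTB2, 0.899 for MT2A and 0.896 for MT1F. Within the 6 libraries with cadmium r was 0.924 for SLC30A1, 0.669 for MT1B, 0.788 for ZBTB2, 0.639 for MT2A and 0.289 for MT1F. These 6 are among the 21 libraries by which the genes were picked. They also pool cadmium with DES and cadmium, which differ in KLKP1, so this r is no separate check.

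SLC30A1 was at 30.7, 84.0 and 157 FPKM in the cadmium libraries, with its lowest and highest in the same libraries as those of KLKP1. ZBTB2, MT2A and MT1F had this order of the cadmium libraries too, and MT1B did not. SLC30A1 was at 235, 123 and 373 FPKM with DES and cadmium, highest in replicate 3, where KLKP1 was highest in replicate 1. It was at 17.7, 22.6 and 32.4 with DES, and at 6.16, 3.23 and 7.40 in the control. Unlike SLC30A1, whose mean was 5.59 ± 2.14 FPKM in the control (SD, n = 3), KLKP1 had no signal without treatment. MT1B was also at 0 fragments in all control, calcium and GSK4716 libraries, and reached 961 fragments with DES and cadmium.

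**Figure D3:**
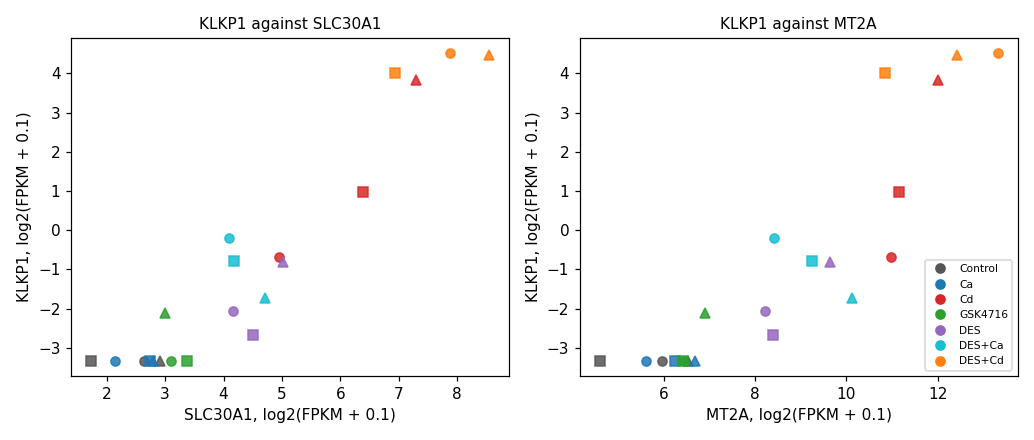
KLKP1 against SLC30A1 (left) and MT2A (right), both axes log2(FPKM + 0.1), 1 point per library; colours are groups, and circles, squares and triangles are replicates 1, 2 and 3. KLKP1 and SLC30A1 had r = 0.949 over the 21 libraries and 0.924 over the 6 with cadmium, against 0.899 and 0.639 for KLKP1 and MT2A.

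FKBP5 (ENSG00000096060, chromosome 6 from 35573585 to 35728583 in GRCh38, minus strand, 10628 bases of exons) was expressed in all libraries, with 22873 fragments in all. It was at 6.56, 7.36 and 5.15 FPKM in the control, a mean of 6.36 ± 1.12 (SD, n = 3). With DES it was at 7.32, 5.84 and 5.05 FPKM, overlapping the control. With DES and calcium it was at 7.56, 6.46 and 7.78 FPKM.

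FKBP5 was lower in each library with calcium, cadmium or GSK4716 than in any control library. It was at 4.73, 3.77 and 4.30 FPKM with calcium, at 4.06, 2.54 and 2.69 with cadmium, and at 4.34, 4.52 and 3.79 with GSK4716. None of these differences passed the test. By limma the difference was -0.56 with calcium (SE 0.18, adjusted p = 0.137), -1.03 with cadmium (SE 0.24, adjusted p = 0.0876) and -0.57 with GSK4716 (SE 0.16, adjusted p = 0.201). These contrasts share the same control libraries, and groups that do not overlap in this direction were seen for 13.6% of all genes in the calcium contrast, 16.7% in that of cadmium and 11.5% in that of GSK4716.

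The cadmium difference of FKBP5 was -1.24 and passed without cadmium replicate 1 (adjusted p = 0.0351), and over the 11 alternatives the adjusted p ranged from 0.0351 to 0.282. For calcium the range was 0.0536 to 0.367 and for GSK4716 0.111 to 0.521. Few genes were called in these contrasts at all: 0.15% of all genes with cadmium and 7.12% with calcium. With GSK4716 limma called 0% (0 of 14686 genes, with 2404 at an unadjusted p under 0.05), and limma-voom called 49.

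With DES present the FKBP5 difference between calcium and no calcium was 0.27 (SE 0.19, adjusted p = 0.566 by limma), and its groups overlapped. Groups that do not overlap, higher with calcium, were seen for 7.84% of all genes, FKBP5 not among them. The interaction, which tests whether the calcium effect differs with DES, was 0.82 (SE 0.27, adjusted p = 0.116 by limma), and 3.63% of all genes were called in it, 1.25% higher and 2.38% lower. DES against control gave -0.07 (SE 0.21, adjusted p = 0.831) and changed sign when control replicate 2 or DES replicate 3 was left out. With DES and cadmium FKBP5 spread from 3.01 in replicate 2 through 5.88 to 7.55 FPKM, a mean of 5.48 ± 2.30 (SD, n = 3), next to 6.07 ± 1.15 with DES. In the order of group means (DES with calcium, control, DES, DES with cadmium, calcium, GSK4716, cadmium) each neighbouring pair overlapped.

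**Figure D4:**
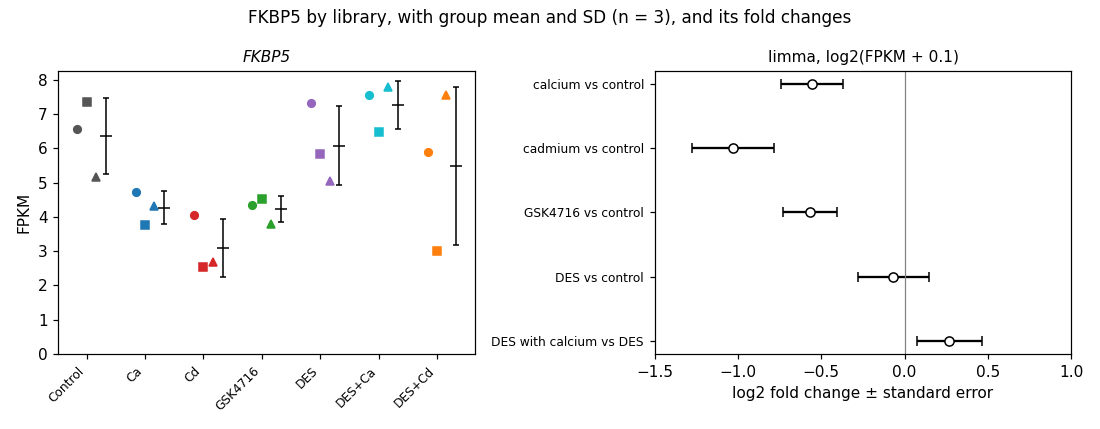
FKBP5 in FPKM (left, y axis from 0) in the 7 groups (x axis), 1 point per library with circles, squares and triangles for replicates 1, 2 and 3, and a mark and bar for the group mean and SD (n = 3); right, log2 differences with standard errors (x axis) in 5 contrasts (y axis) by limma, where an open point did not pass an adjusted p of 0.05. The points of all 5 contrasts are open, and the lowest is cadmium against control at -1.03.

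By the same likeness over 21 libraries, FKBP5 was most like RNASEH2B (r = 0.925), GINS2 (0.910), MCM4 (0.909), CDK2 (0.909) and RBBP4 (0.903), a list added after the values were seen. GINS2 and MCM4 encode parts of the replicative helicase, CDK2 a cell cycle kinase, RNASEH2B a subunit of ribonuclease H2, and RBBP4 a histone-binding protein.

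Among steroid receptors, the glucocorticoid receptor gene NR3C1 was at 8.15 ± 0.813 FPKM in the control and 10.8 ± 3.38 with DES (SD, n = 3), a difference of 0.36 (SE 0.24, adjusted p = 0.290). The mineralocorticoid receptor gene NR3C2 rose with DES from 0.563 ± 0.0831 to 1.38 ± 0.448 FPKM, a difference of 1.12 (SE 0.34, adjusted p = 0.0478). That call held in 2 of 11 alternatives, with adjusted p up to 0.145, and was lost without any of the 3 control libraries and without DES replicate 2 or 3. PGR, ESR1 and ESR2 did not pass the filter and had at most 49, 28 and 17 fragments in a library.

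Steroid receptors act with pioneer factors and coactivators, and 8 of 11 tested cofactor genes changed with DES. GATA2, a pioneer factor, rose from 10.2 ± 0.554 to 20.98 ± 3.61 FPKM (log2 difference 1.02, SE 0.16, adjusted p = 0.00610 by limma), and NCOA4 rose by 0.62 (adjusted p = 0.0373). FOXA1, the pioneer factor of luminal cells, fell by 1.17 from 168 ± 18.8 to 76.8 ± 24.0 FPKM (adjusted p = 0.0155). The coactivator gene NCOA2 fell by 1.37 (adjusted p = 0.00332) and the epithelial factor gene GRHL2 fell by 1.19 (adjusted p = 0.00772). In all, 2 rose (18.2%) and 6 fell (54.5%), with a median difference of -0.55, beside 16.7% higher, 12.9% lower and a median of 0.05 over all genes. HOXB13 was below the filter.

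Of the androgen response genes 71 were in the table and 56 tested. With DES 7 rose (12.5%) and 12 fell (21.4%), with a median of -0.03, beside 16.7% higher, 12.9% lower and a median of 0.05 over all genes. The protease gene ADAMTS1 rose by 1.78 (adjusted p = 0.00447), B2M by 1.60 (0.0124) and TPD52 by 0.69 (0.0221). The kinase gene RPS6KA3 fell by 1.69 (adjusted p = 0.0129), ARID5B by 1.31 (0.0180) and PMEPA1, an androgen-induced membrane protein gene, by 1.28 (0.00493). TMPRSS2, a classical androgen target, was at 3.52 ± 1.18 FPKM in the control and 3.00 ± 0.251 with DES (SD, n = 3).

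Genes induced by the glucocorticoid receptor were mostly higher with DES. Of 10 such genes 7 were tested, 6 rose (85.7%) and 0 fell, with a median difference of 2.07, beside 16.7% higher and 12.9% lower over all genes. The clock gene PER1 rose from 2.30 ± 0.942 to 45.8 ± 14.4 FPKM, a difference of 4.28 (SE 0.33, adjusted p = 0.000516 by limma). The phosphatase gene DUSP1 rose by 3.39 (adjusted p = 0.00483) and the NF-kappaB inhibitor gene NFKBIA by 2.07 (adjusted p = 0.00108). PER1, DUSP1 and NFKBIA are also known as early responders to other signals. FKBP5, which is not on this list, differed by -0.07 with DES (adjusted p = 0.831 by limma). What made the listed genes rise was not tested.

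Of 15 genes of the receptor chaperone complex, in which FKBP51 acts, 11 rose with DES (73.3%), 0 fell and 4 did not pass, with a median of 1.06, beside 16.7% higher and 12.9% lower over all genes. The co-chaperone gene DNAJB1 rose from 36.0 ± 0.845 to 742 ± 287 FPKM (4.28, SE 0.30, adjusted p = 0.000408). HSP90AA1, the inducible HSP90 gene, rose by 2.71 (adjusted p = 0.00189) and BAG1 by 1.74 (adjusted p = 0.00126).

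Of the 19 genes named here as called with DES, 7 lost the call without control replicate 1, 7 without control replicate 2, 4 without control replicate 3, 5 without DES replicate 2, and 1 each without DES replicate 1 or 3. With no filter on low values 11 were lost (adjusted p from 0.0503 to 0.127 by limma), by limma-voom 3, with the replicate number as a block 2, with median-ratio scaling 1 and with a pseudocount of 1, 0. GATA2, NCOA2, ADAMTS1, PMEPA1, PER1, NFKBIA, DNAJB1 and BAG1 kept it in all 11 alternatives.

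With calcium 9 of 56 androgen response genes rose (16.1%) and 4 fell (7.14%), with a median of 0.34. Over all genes 4.6% were higher, 2.53% were lower and the median was -0.01. Most calls over all genes were higher too (64.5% of the calls), so that direction is not particular to the list. The myosin light chain gene MYL12A rose by 1.84 (adjusted p = 0.0109 by limma), the keratin gene KRT8 by 1.79 and B2M by 1.59. The sorbitol dehydrogenase gene SORD fell by 1.29, the centromere gene CENPN by 1.23 and the guanylate cyclase gene GUCY1A1 by 1.06. Of the glucocorticoid response genes, DUSP1 (3.94) and ERRFI1 (3.28), a feedback inhibitor of the EGF receptor, rose and 0 fell, with a median of 0.55. Of the chaperone complex DNAJB1 rose by 0.94, with a list median of -0.01. The cofactors had a median of -0.22 with calcium, and 10 of 11 tested were below 0, of which 1 was called (9.09%, beside 2.53% lower over all genes).

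The calls of the 10 genes named with calcium, C19orf48 included, depended on single libraries: all 10 were lost without control replicate 1 (adjusted p from 0.0560 to 0.178) and all 10 without control replicate 2 (0.0532 to 0.171). Without calcium replicate 2, 8 were lost, without calcium replicate 1, 7, without control replicate 3, 4, and without calcium replicate 3, 3. With no filter on low values all 10 were lost (0.0671 to 0.212), with the replicate number as a block 7, with median-ratio scaling 1, and by limma-voom or with a pseudocount of 1, 0.

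No gene of these lists was called with cadmium or GSK4716, or with calcium on top of DES. The median differences with cadmium were -0.06 for the cofactors, 0.12 for the androgen response, 0.77 for the glucocorticoid response and 0.41 for the chaperone complex, beside 0.04 over all genes. With GSK4716 they were 0.04, 0.06, 0.24 and -0.23, beside 0 over all genes. With calcium on top of DES they were -0.03, 0.25, -0.40 and 0.03, beside 0.00 over all genes, of which 0.136% were called (20 genes, and 0 with the replicate number as a block, 0 without the filter and 0 by limma-voom). Of 8 kallikrein inhibitor genes only SERPINB6 passed the filter, at 6.58 ± 0.343 FPKM in the control, 4.23 ± 0.575 with cadmium and 11.2 ± 4.90 with DES and cadmium (SD, n = 3 each), and it was not called in any tested contrast.

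In DES with cadmium against DES, where the values chose KLKP1, 0.266% of all genes were called (39 genes, and 0 with the replicate number as a block), 0.0272% were called higher, 5.38% had groups that do not overlap in that direction, and nothing is read from these shares. The members side by side were KLKP1 at 20.3 against 0.223 FPKM and FKBP5 at 5.48 against 6.07. KLK2, KLK3 and KLK4 had 1, 1 and 1 fragments in the 3 DES with cadmium libraries together and 6, 0 and 1 in the 3 DES libraries.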

How the data were processed

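Polyadenylated RNA of 21 libraries was read as gene-level FPKM. Per the labels and the submitters' processing notes, the authors aligned reads with HISAT2 (2.0.5) to GRCh38.p14 and counted with featureCounts (1.5.0-p3). The deposited values are FPKM, made by the authors from whole fragment counts, gene length and library size. Each value was a whole number of fragments (100%, within 0.05), so fragments were recovered and used for depth, floors of 3 fragments and a limma-voom alternative. Whether counting used strand is not given in the sources used here.

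Genes with a mean of at least 0.5 FPKM over the 21 libraries (14686) were tested with limma (3.58.1, R 4.3.3) on log2(FPKM + 0.1), with an empirical Bayes trend, two-sided and Benjamini-Hochberg adjusted over all genes tested, on the groups compared only. The interaction of calcium with DES used 4 groups. A gene was called at an adjusted p under 0.05. A fold change on this scale understates changes of low genes. The fits were tested on simulated data. Floors cover counting error only. The members, the gene lists and the tests were chosen with earlier results of these data known.

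The genes named are the members, the other kallikreins, genes within 250 kb of KLKP1 that passed the filter, the steroid receptors, from each further list the 3 strongest called genes in either direction with a mean of at least 1 FPKM, and the 5 genes most correlated with KLKP1. TMPRSS2 and the genes most like FKBP5 were named after their values were seen. Alternatives were a pseudocount of 1, no filter, median-ratio scaling, limma-voom, the replicate number as a block, and each library left out. Same-numbered libraries deviated together, with each correlation over 0.1, in DES with calcium against DES (0.132, 0.103 and 0.280) and in DES with cadmium against DES (0.472, 0.121 and 0.313), a pairing seen in the data only. Promoter windows are from RefSeq or GENCODE starts and were searched on both strands. Some genes and sequences that these rules cover are not reported here.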

Additional observations from a re-analysis of the deposited data

Results flagged for a closer look

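For 6 named genes the effect of calcium differed with and without DES by an interaction term (limma, Benjamini-Hochberg adjusted, 3 libraries in each of 4 groups). The values are the log2 effect of calcium with DES minus that without DES. It was 1.45 for C19orf48 (adjusted p = 0.0380), 1.36 for SORD (0.0402) and 1.27 for GUCY1A1 (0.0419). It was -3.40 for DUSP1 (0.0164), -2.29 for ERRFI1 (0.0342) and -2.23 for NFKBIA (0.0357). SORD was at 37.9 ± 5.22 FPKM in the control, 15.6 ± 3.54 in the calcium group, 45.7 ± 14.3 in the DES group and 46.7 ± 4.60 with both (SD, n = 3 each). DUSP1 was at 5.72 ± 4.26, 76.2 ± 20.2, 52.2 ± 14.4 and 74.1 ± 9.53 FPKM in the same groups.

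All 6 calls were lost with no filter on low values. Without control replicate 1, control replicate 2, DES replicate 2, DES replicate 3 or DES_calcium replicate 1, 5 of the 6 were lost and DUSP1 kept its call. Without DES_calcium replicate 3, 4 were lost, and 3 were lost without any calcium library or DES_calcium replicate 2. Without DES replicate 1, 2 were lost, and without control replicate 3, 1 was lost.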

How the results depend on the processing

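Counts of called genes by contrast moved with the settings, and the cause was not tested. For calcium, 1046 became 60 with no filter and 1586 by limma-voom. For cadmium, 22 became 148 with a pseudocount of 1, 38 with no filter and 455 by limma-voom. For GSK4716, 0 became 49 by limma-voom. For DES, 4340 became 2106 with no filter, and for the interaction 533 became 208. For calcium on top of DES, 20 became 5 with a pseudocount of 1, 0 with no filter and 0 by limma-voom. For DES with cadmium against DES, 39 became 77, 7 and 0 under these settings. Leaving out 1 library gave 7 (without control replicate 1) to 758 for calcium, 1 (without cadmium replicate 2) to 1605 (without cadmium replicate 1) for cadmium, 0 to 1 for GSK4716, 1930 (without control replicate 1) to 5078 for DES, 0 to 41 for calcium on top of DES, 181 to 830 for the interaction and 0 to 96 for DES with cadmium against DES.

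With the replicate number as a block, calls went from 1046 to 260 for calcium and 22 to 3 for cadmium, where the numbers did not pair the libraries. In the contrasts where they did, calls went from 20 to 0 for calcium on top of DES and from 39 to 0 for DES with cadmium against DES. KLK14 with DES had adjusted p = 0.0465 under the block by limma, without pairing in that contrast. FKBP5 was called in no tested contrast with or without the block.

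Small differences turned sign when 1 library was left out. CLEC11A with calcium ranged from -0.26 to 0.30 and was 0.00081 without control replicate 2. CTU1 with calcium ranged from -0.29 to 0.068 and was 0.017 without control replicate 3, and with GSK4716 it ranged from -0.43 to 0.0037. FKBP5 with DES ranged from -0.21 to 0.055 and was 0.045 without control replicate 2. The CLEC11A interaction ranged from -0.27 to 0.31 and was -0.09 without DES replicate 3 and -0.11 without DES_calcium replicate 2. Among values of single genes, KLKP1 left out because it was not tested, 502 stayed on their side of the threshold or within their spread, 152 lost a call, 6 gained one and 10 turned sign. Depth limits KLK2, KLK3 and KLK4, whose levels cannot be told from 0 in most libraries.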
